A study of Rattus norvegicus with 3 samples.

Results

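A set of 10 genes of glucose breakdown and of the response to low oxygen were followed through the cells of the injured rat spinal cord. They were taken by symbol (Ldha, Aldoa, Eno1, Pgk1, Tpi1, Pkm, Slc2a1, Hif1a, Bnip3 and Hk2) and all 10 were found once each among the 25199 features of the deposited tables. Wild-type rats aged 6 to 8 weeks received an injection of MPG-HD, G-HD or PBS at the site of the injury. The series title names a hydrogel depot, the abbreviations are not expanded here, and the PBS injection served as the control. The tissue was a 5-mm piece of cord around the injury from 5 animals per condition, digested with collagenase and trypsin, and whether the animals were pooled before or after digestion is not stated. Each condition has 1 library from the droplet-based 10x Genomics 3′ v3 kit, so there is no test between treatments. Intervals are exact at 95% and cover counting error only, not differences between animals or preparations.

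Glycolysis turns glucose into pyruvate in the cytosol. Slc2a1 encodes the glucose transporter GLUT1 and Hk2 a hexokinase that traps glucose in the cell by phosphorylation. Aldoa (aldolase), Tpi1 (triosephosphate isomerase), Pgk1 (phosphoglycerate kinase), Eno1 (enolase) and Pkm (pyruvate kinase) carry later steps, and Ldha encodes the lactate dehydrogenase subunit that favours the making of lactate. Hif1a encodes the oxygen-regulated subunit of the transcription factor HIF-1, whose level is set largely by protein breakdown and not by its mRNA. HIF-1 is known to induce many of these enzymes, Slc2a1 and Bnip3, the last of which encodes a mitochondrial protein that promotes mitophagy. Inflammatory macrophages are known for high glycolysis, and oligodendrocytes and Schwann cells for passing lactate to axons.

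HIF-1 binds a short core, ACGTG or GCGTG, within hypoxia response elements. RefSeq promoter windows of the GRCr8 rat assembly, each from 250 bases before to 50 after an annotated start, were found for 9 of the 10 genes, in 12 windows. Those of Ldha, Slc2a1, Bnip3 and Eno1, which has 2, are shown because these 4 genes were at least 1.5-fold lower in macrophage-like cells of MPG-HD against G-HD, and that of Hk2 because it was not. Capitals mark ACGTG read on either strand, where CACGTG holds 2 overlapping matches. The windows are chr1:106507842-106508141 on the plus strand for Ldha, chr5:138002272-138002571 on the plus strand for Slc2a1, chr1:203154913-203155212 on the minus strand for Bnip3, chr5:166002617-166002916 (window 1) and chr5:166003111-166003410 (window 2) on the plus strand for Eno1 and chr4:116841226-116841525 on the minus strand for Hk2.
Ldha: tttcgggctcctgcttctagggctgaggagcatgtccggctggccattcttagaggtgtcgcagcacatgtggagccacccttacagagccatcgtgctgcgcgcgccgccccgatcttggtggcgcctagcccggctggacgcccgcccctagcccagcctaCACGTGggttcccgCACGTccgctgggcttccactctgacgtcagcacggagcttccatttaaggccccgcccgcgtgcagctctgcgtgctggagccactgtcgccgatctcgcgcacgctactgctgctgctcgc
Slc2a1: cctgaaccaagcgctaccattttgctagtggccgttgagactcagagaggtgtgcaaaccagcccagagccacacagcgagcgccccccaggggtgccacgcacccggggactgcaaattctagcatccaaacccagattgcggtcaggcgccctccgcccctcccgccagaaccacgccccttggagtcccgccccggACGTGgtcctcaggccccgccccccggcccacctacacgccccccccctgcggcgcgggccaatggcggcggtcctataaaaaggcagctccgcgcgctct
Bnip3: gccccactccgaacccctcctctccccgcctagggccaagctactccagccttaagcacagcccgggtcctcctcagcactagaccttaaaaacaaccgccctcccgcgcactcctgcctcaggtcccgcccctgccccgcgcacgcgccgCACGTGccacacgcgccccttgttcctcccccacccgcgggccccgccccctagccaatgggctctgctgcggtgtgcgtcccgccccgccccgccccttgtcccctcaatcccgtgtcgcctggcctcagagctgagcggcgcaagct
Eno1, window 1: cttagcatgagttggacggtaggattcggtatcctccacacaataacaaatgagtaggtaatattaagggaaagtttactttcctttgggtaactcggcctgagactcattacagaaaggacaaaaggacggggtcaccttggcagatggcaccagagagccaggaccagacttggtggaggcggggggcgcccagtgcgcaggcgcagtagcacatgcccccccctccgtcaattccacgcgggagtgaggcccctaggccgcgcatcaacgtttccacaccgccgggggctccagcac
Eno1, window 2: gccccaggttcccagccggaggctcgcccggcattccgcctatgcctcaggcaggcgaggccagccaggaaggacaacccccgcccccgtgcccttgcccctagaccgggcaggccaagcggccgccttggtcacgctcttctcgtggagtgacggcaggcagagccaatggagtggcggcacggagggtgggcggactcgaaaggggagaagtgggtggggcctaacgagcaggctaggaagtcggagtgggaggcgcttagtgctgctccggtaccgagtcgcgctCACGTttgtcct
Hk2: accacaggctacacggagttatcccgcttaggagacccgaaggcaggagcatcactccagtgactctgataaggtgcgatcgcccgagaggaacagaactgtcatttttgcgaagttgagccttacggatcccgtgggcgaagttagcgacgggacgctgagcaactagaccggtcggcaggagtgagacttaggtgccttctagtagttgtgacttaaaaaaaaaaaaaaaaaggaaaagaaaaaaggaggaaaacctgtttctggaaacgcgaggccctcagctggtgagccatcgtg

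The Ldha window held 3 matches to ACGTG, which started 87, 86 and 73 bases before the start site. The Slc2a1 window held 1 match, 51 bases before the start, and the Bnip3 window 2, at 99 and 98 bases before it. Window 2 of Eno1 held 1 match, 38 bases after the start, and window 1 none. Hif1a, which was not lower, had 3 matches, 1 of the 3 Aldoa windows had 1 match, and the Hk2, Tpi1 and Pkm windows had none. In all, 6 of the 12 windows held ACGTG, against 19.3% of 33469 rat windows and 24.3% of the 16420 windows with a GC content within the range of these 12. GCGTG was found in 5 of the 12 windows, against 29.7% of all windows and 43.9% of those within that GC range, which is near the count of these 12. A match is a run of letters and not a site shown to be bound.

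Total counts were 23988263 UMIs (unique molecular identifiers, each standing for 1 captured RNA molecule) in MPG-HD, 26289759 in G-HD and 16081082 in PBS. After filtering, 2087, 2342 and 1374 cells remained in MPG-HD, G-HD and PBS, with median depths of 9247.5 to 10425 UMIs. Between 5 and 8 cell barcodes were shared by each pair of libraries. Clusters were built without the genes studied here and named by fixed markers. Macrophage-like cells numbered 435 in MPG-HD, 695 in G-HD and 323 in PBS, and microglia-like cells 401, 300 and 284. Oligodendrocyte-like cells numbered 396 in MPG-HD, 169 in G-HD and 225 in PBS, Schwann-like cells 210, 203 and 96, and fibroblast-like cells 168, 237 and 136. Neither astrocytes nor neurons gave their name to a cluster, and oligodendrocyte precursor-like cells were not compared between treatments, so glia here means oligodendrocyte-like and Schwann-like cells. Levels are counts per 1000000 UMIs (CPM) of the class in a library, so they compare a gene between cells and not 1 gene with another.

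Each cell class carried its own pattern of the 10 genes. Among the 5 classes compared between treatments, Ldha was highest in Schwann-like cells, Bnip3 and Slc2a1 in oligodendrocyte-like cells, Hk2 and Pkm in microglia-like cells, and Eno1 in fibroblast-like cells. The spread given with these means is over the 3 libraries, which differ in treatment. A pair of classes is called separate below where all 3 libraries of 1 class lay above all 3 of the other.

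**Figure D1:**
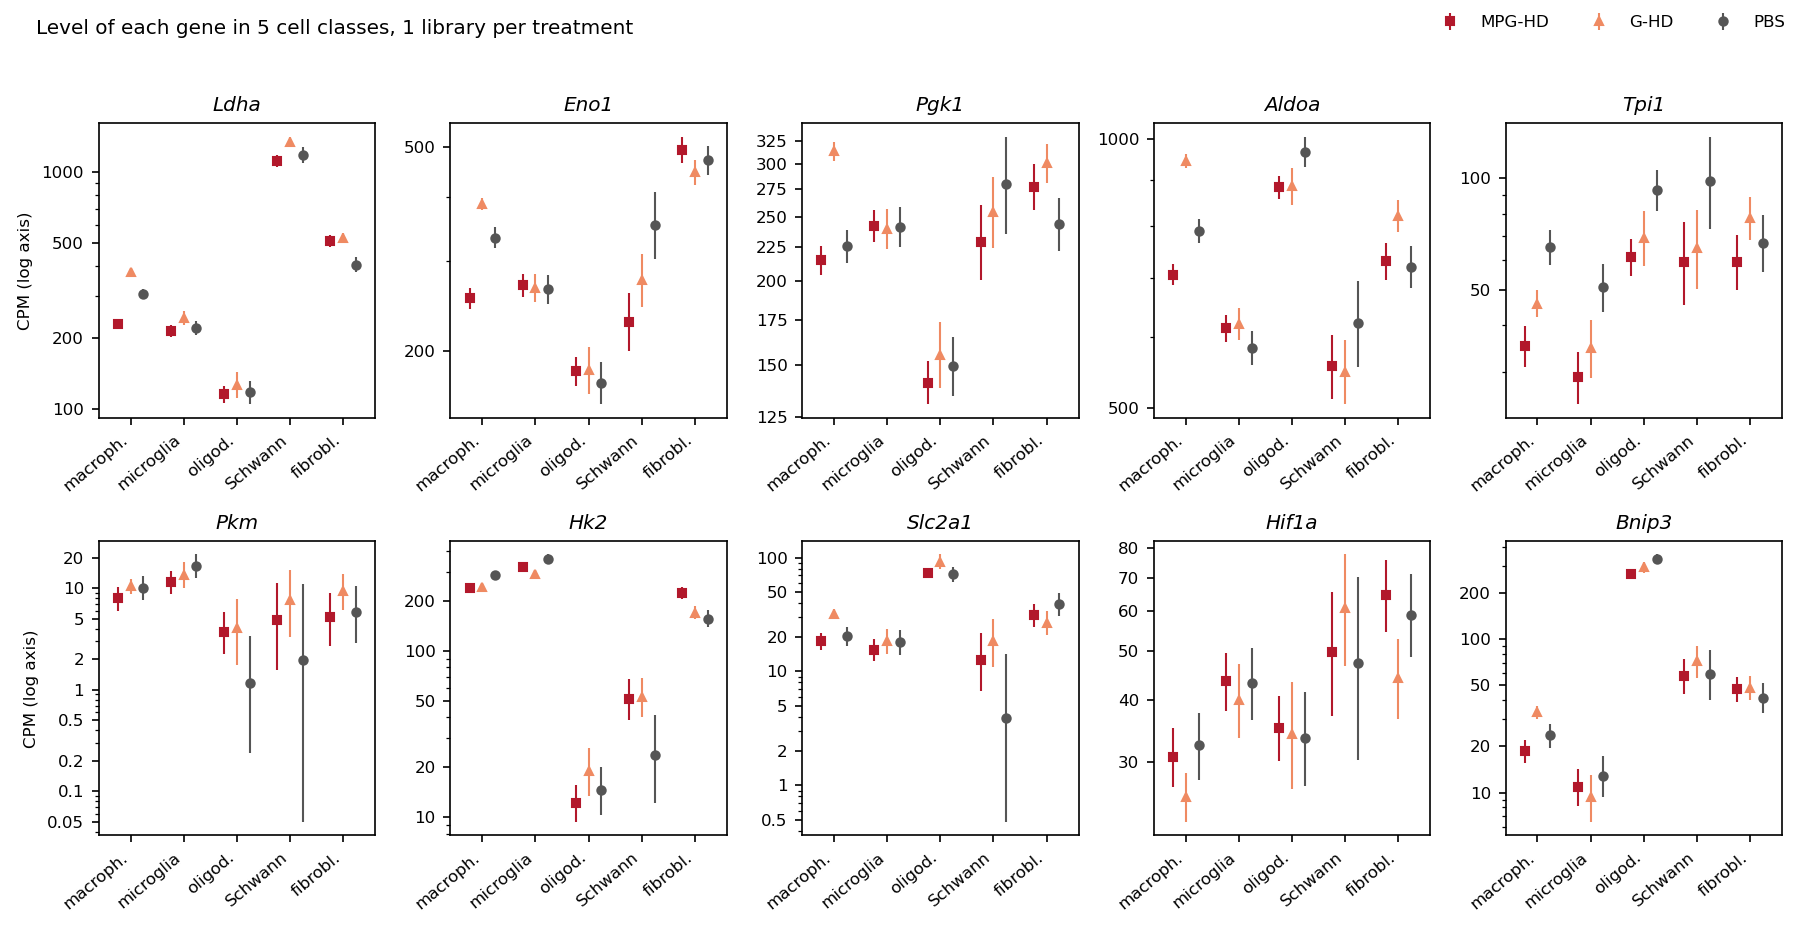
Level of each gene in CPM (log axis, a separate range in each panel) in macrophage-like, microglia-like, oligodendrocyte-like, Schwann-like and fibroblast-like cells; each point is 1 library and each line its 95% counting interval. Ldha stood at 1116 to 1338 CPM in Schwann-like cells and 115 to 126 CPM in oligodendrocyte-like cells, and Hk2 at 288 to 359 CPM in microglia-like cells and 12.2 to 19.1 CPM in oligodendrocyte-like cells.

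Ldha reached 1116 CPM in MPG-HD, 1338 CPM in G-HD and 1181 CPM in PBS Schwann-like cells, a mean of 1212 ± 114 CPM (SD, n = 3). In oligodendrocyte-like cells it stood at 115 CPM in MPG-HD, 126 CPM in G-HD and 118 CPM in PBS. The libraries of these myelinating classes lay far apart, with a mean ratio of 10.1 within libraries. Fibroblast-like cells came next at 481 ± 65.0 CPM, above all libraries of the remaining classes. Macrophage-like cells (304 ± 75.8 CPM) and microglia-like cells (225 ± 15.1 CPM) overlapped and both lay above oligodendrocyte-like cells. One Schwann-like cell in PBS held 117 of the 600 Ldha UMIs of its class (19.5%). Neutrophil-like cells, outside the 5 classes, overlapped Schwann-like cells in Ldha. They held 74 Ldha UMIs among 56382 in MPG-HD, 497 among 538301 in G-HD and 85 among 74158 in PBS.

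The other enzymes of the lower pathway differed less. Eno1 was highest in fibroblast-like cells (470 ± 24.0 CPM) and lowest in oligodendrocyte-like cells (180 ± 5.67 CPM), while macrophage-like, Schwann-like and microglia-like cells overlapped in between at means of 266 to 324 CPM. Pgk1 was likewise lowest in oligodendrocyte-like cells (149 ± 7.17 CPM), below the means of 241 to 274 CPM in the other 4 classes, whose neighbours overlapped, while fibroblast-like cells (244 to 300 CPM) were separate from microglia-like cells (240 to 242 CPM). Aldoa ran the other way, with its highest mean in oligodendrocyte-like cells (913 ± 48.3 CPM), which overlapped macrophage-like cells (814 ± 122 CPM), and its lowest in microglia-like (606 ± 19.96 CPM) and Schwann-like cells (576 ± 40.2 CPM). Tpi1 had means of 38.1 to 74.3 CPM, and no neighbours in its order were separate. Microglia-like cells (28.9 to 50.7 CPM) were separate from fibroblast-like (59.3 to 78.2 CPM), Schwann-like and oligodendrocyte-like cells. Pkm was sparse, at 13.9 ± 2.58 CPM in microglia-like cells and at most 9.53 ± 1.35 CPM in the other 4 classes compared between treatments. RefSeq lists 30 pseudogene entries for Ldha, 31 for Eno1, 19 for Pkm, 9 for Aldoa, 8 for Pgk1, 8 for Bnip3 and 3 for Tpi1, so their counts are uncertain where reads could be split among copies.

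At the entry to the pathway, the hexokinase gene Hk2 and the transporter gene Slc2a1 were high in different cells. Hk2 stood at 319 CPM in MPG-HD, 288 CPM in G-HD and 359 CPM in PBS microglia-like cells, and at 12.2, 19.1 and 14.7 CPM in the MPG-HD, G-HD and PBS oligodendrocyte-like cells. The order from microglia-like through macrophage-like (257 ± 26.4 CPM), fibroblast-like (183 ± 35.0 CPM) and Schwann-like (42.8 ± 16.6 CPM) to oligodendrocyte-like cells (15.3 ± 3.48 CPM) had a gap at each step. The gap of the first step was slight, 288 CPM in G-HD microglia-like against 287 CPM in PBS macrophage-like cells, and their counting intervals overlapped. Slc2a1 was highest, among these 5 classes, in oligodendrocyte-like cells, at 73.0 CPM in MPG-HD, 92.0 CPM in G-HD and 71.4 CPM in PBS. The other 4 classes had means of 11.6 to 32.3 CPM, and their neighbours overlapped. Fibroblast-like cells (26.8 to 38.8 CPM) were separate from microglia-like (15.5 to 18.4 CPM) and Schwann-like cells (3.94 to 18.3 CPM). Slc2a1 is best known as the transporter of the blood-brain barrier, and the endothelial-like cells, only 33 in MPG-HD, 43 in G-HD and 37 in PBS, held 2037, 1830 and 1283 CPM.

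Hif1a varied little between these 5 classes, from 55.9 ± 10.5 CPM in fibroblast-like cells to 29.6 ± 3.57 CPM in macrophage-like cells, whose 3 libraries lay below all those of the other 4 classes. The gap to oligodendrocyte-like cells was slight. PBS macrophage-like cells stood at 32.4 CPM (27.7 to 37.7), and PBS oligodendrocyte-like cells, at 33.6 CPM, lay within that counting interval. Outside these 5 classes, T-like cells held 164 CPM in MPG-HD, 120 CPM in G-HD and 126 CPM in PBS, and oligodendrocyte precursor-like cells 107, 172 and 107 CPM in MPG-HD, G-HD and PBS. Bnip3 covered a much wider range. It stood at 266 CPM in MPG-HD, 294 CPM in G-HD and 332 CPM in PBS oligodendrocyte-like cells, against 10.9, 9.33 and 12.8 CPM in MPG-HD, G-HD and PBS microglia-like cells. Schwann-like (62.7 ± 7.63 CPM), fibroblast-like (45.6 ± 3.61 CPM) and macrophage-like cells (25.2 ± 7.45 CPM) lay between, each separate from the next.

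Set against each other within libraries, macrophage-like cells exceeded microglia-like cells in all 3 libraries against all 3 for 2 of the 10 genes, Aldoa (1.33-fold) and Bnip3 (2.24-fold), and 14.3% of all genes did so. They lay below for 3, Pkm (0.690), Hif1a (0.699) and Hk2 (0.798), against 39.9% of all genes. Both counts are near the shares of all genes, and the other 5 genes overlapped. Against oligodendrocyte-like cells, macrophage-like cells were higher for 5 of 10 (25.9% of all genes), namely Hk2 (17.0-fold), Pkm (3.65), Ldha (2.49), Eno1 (1.78) and Pgk1 (1.67), and lower for Bnip3 (0.0826), Slc2a1 (0.292) and Hif1a (0.859), against 55.6% of all genes. The median log2 ratio of the 10 was 0.28, against −0.57 over all genes. Fibroblast-like cells were higher than oligodendrocyte-like cells for 6 of 10 genes (37.4% of all genes), including Hk2 (12-fold), Ldha (4.00) and Eno1 (2.61), and lower for 3 (33.0%), with a median of 0.78 against 0.07. Schwann-like cells were higher than oligodendrocyte-like cells for 5 of 9 genes with enough counts (41.6% of all genes) and lower for Slc2a1 (0.124), Bnip3 (0.211) and Aldoa (0.631), against 23.1%. Their median of 0.61, against 0.27 over all genes, came to −0.14 when each cell was thinned to 1000 UMIs.

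The isozymes that share these steps also differed between classes. Ldhb encodes the other main subunit of lactate dehydrogenase. It stood at 304 CPM in MPG-HD, 334 CPM in G-HD and 313 CPM in PBS oligodendrocyte-like cells and at 15.9, 5.76 and 8.25 CPM in MPG-HD, G-HD and PBS macrophage-like cells. Ldha therefore made up 93.5% of the Ldha and Ldhb UMIs of macrophage-like cells in MPG-HD, 98.5% in G-HD and 97.4% in PBS, but 27.5%, 27.4% and 27.3% in MPG-HD, G-HD and PBS oligodendrocyte-like cells. Schwann-like cells were on the Ldha side, at 77.4% in MPG-HD, 79.8% in G-HD and 77.8% in PBS.

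**Figure D2:**
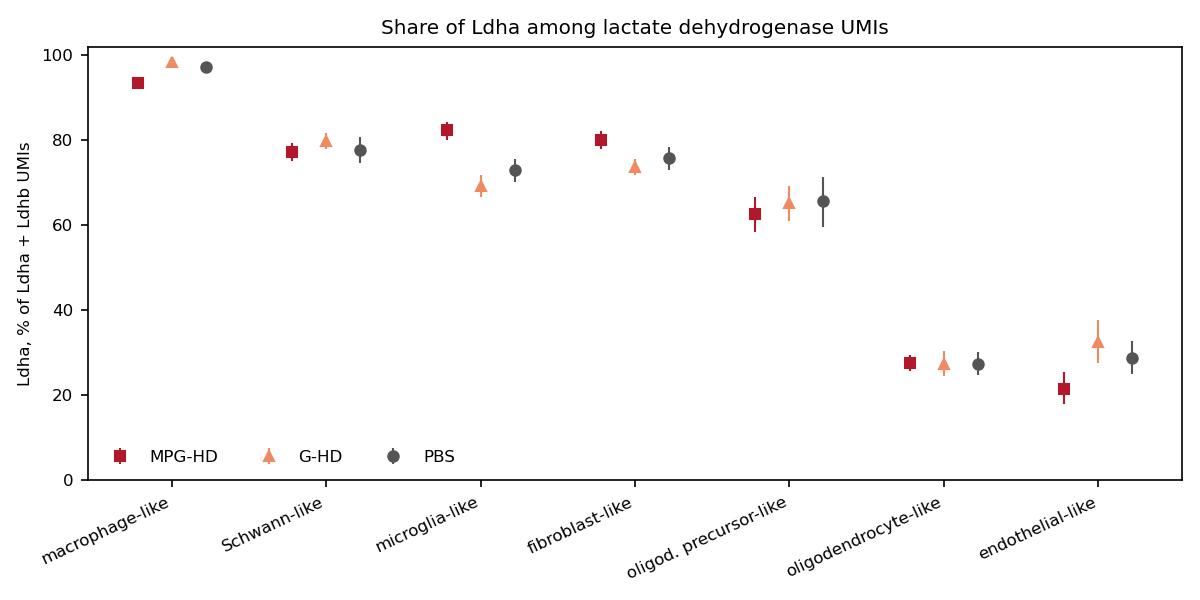
Share of Ldha among Ldha and Ldhb UMIs (percent) in 7 cell classes; each point is 1 library, with its exact binomial 95% interval. Macrophage-like cells sit at 93.5% to 98.5% and oligodendrocyte-like cells at 27.3% to 27.5%, and microglia-like cells are higher in MPG-HD (82.3%) than in G-HD (69.4%) or PBS (72.9%).

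Other isozymes of the list were as uneven. Aldoc, the brain aldolase, stood at 110 CPM in MPG-HD, 105 CPM in G-HD and 150 CPM in PBS oligodendrocyte-like cells, and below 3 CPM in macrophage-like cells. Hk3, a hexokinase of myeloid cells, stood at 40.6 CPM in MPG-HD, 55.7 CPM in G-HD and 52.7 CPM in PBS macrophage-like cells, and at 16.3, 26.9 and 25.3 CPM in the MPG-HD, G-HD and PBS microglia-like cells. Bnip3l, a relative of Bnip3 with a like role in mitophagy, was also higher in oligodendrocyte-like than in macrophage-like cells, at 335 and 120 CPM in MPG-HD. Epas1, which encodes the HIF-2 alpha subunit, stood at 574 CPM in MPG-HD, 511 CPM in G-HD and 535 CPM in PBS endothelial-like cells.

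Within a class, clusters differed as well. Oligodendrocyte-like cluster 4, led by Klk6 and Hapln2, held less Ldha than cluster 6, led by Masp1 and Opalin. Cluster 4 had 47.3 CPM in MPG-HD, 72.1 CPM in G-HD and 50.2 CPM in PBS, against 193, 205 and 241 CPM in the MPG-HD, G-HD and PBS cells of cluster 6, a mean ratio of 0.262. Bnip3 went the other way, at 350 CPM in MPG-HD, 389 CPM in G-HD and 390 CPM in PBS for cluster 4 and 176, 175 and 239 CPM in MPG-HD, G-HD and PBS for cluster 6. Aldoa (1.68), Slc2a1 (1.64) and Tpi1 (1.41) were also higher in cluster 4, which makes 4 of 9 genes higher, against 18.9% of all genes, and 1 lower, against 19.4%.

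The 3 macrophage-like clusters were led by Mmp12, Fabp4 and Spp1 (cluster 1), by Ccl7, Fcna, Mrc1 and Lyve1 (cluster 2) and by class II genes and Cd74 (cluster 10). Cluster 10 held the most Ldha, at 427 CPM in MPG-HD, 591 CPM in G-HD and 696 CPM in PBS, with cluster 1 at 0.534 and cluster 2 at 0.411 of its level. Slc2a1 was 1.64-fold higher in cluster 1 than in cluster 2, and Hif1a was lower, at 0.729. Over the 10 genes, cluster 1 lay above cluster 2 for 1 gene (9.77% of all genes) and below for 2 (27.6%), and above cluster 10 for 1 (13.3%) and below for 2 (28.7%). Cluster 2 lay below cluster 10 for 3 (20.1%).

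Between treatments, Ldha, Slc2a1, Bnip3 and Eno1 were at least 1.5-fold lower in macrophage-like cells of MPG-HD than of G-HD. These are 4 of 10 genes, against 4.62% of all genes with enough counts (at least 50 UMIs in both sums together), and none was as much higher, against 2.86%. Of the other 6, Aldoa, Pgk1, Tpi1 and Pkm had ratios of 0.687 to 0.768, Hk2 stood at 0.990 (0.932 to 1.05) and Hif1a at 1.202 (1.01 to 1.44). The median log2 ratio of the 10 genes was −0.48, with medians of −0.66 and −0.42 for their lower and upper bounds, against −0.03 over all genes. The 10 were chosen as pathway genes with earlier results of these data known.

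Ldha stood at 228 CPM in MPG-HD, 379 CPM in G-HD and 305 CPM in PBS macrophage-like cells, and the ratio of MPG-HD over G-HD was 0.600 (0.567 to 0.635). Eno1 stood at 253 CPM in MPG-HD, 387 CPM in G-HD and 333 CPM in PBS, a ratio of 0.654 (0.619 to 0.691). For both enzymes, PBS lay between the gels, with MPG-HD lowest. The log2 ratio of Eno1 (−0.61) was −0.58 to −0.52 under 4 of 12 alternatives and that of Ldha (−0.74) was −0.58 with clusters weighted equally, values just short of 1.5-fold. Pgk1 stood at 215 CPM in MPG-HD, 313 CPM in G-HD and 226 CPM in PBS, a ratio of 0.687 (0.646 to 0.729). Aldoa stood at 706 CPM in MPG-HD, 946 CPM in G-HD and 789 CPM in PBS, a ratio of 0.746 (0.721 to 0.771). G-HD was the high library for these 4 enzymes. It was also high in some classes not compared between treatments. Ldha, Aldoa, Eno1, Pgk1, Tpi1 and Pkm together held 0.193% of UMIs in MPG-HD, 0.261% in G-HD and 0.168% in PBS oligodendrocyte precursor-like cells. In T-like cells they held 0.210%, 0.254% and 0.205% in MPG-HD, G-HD and PBS. G-HD was also highest in NK-like cells, but not in neutrophil-like, endothelial-like, mural-like, B-like or ependymal-like cells. These differences were not tested.

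The transporter Slc2a1 stood at 18.4 CPM in MPG-HD, 32.0 CPM in G-HD and 20.3 CPM in PBS, and Bnip3 at 18.6, 33.3 and 23.6 CPM in MPG-HD, G-HD and PBS. Their ratios of MPG-HD over G-HD were 0.574 (0.467 to 0.702) and 0.560 (0.456 to 0.684). Again G-HD was high and the other libraries were closer together. After thinning to 1000 UMIs per cell the Slc2a1 ratio turned to a log2 value of 0.44, on 12 UMIs in MPG-HD and 14 in G-HD. Hk2 did not share the pattern, at 240 CPM in MPG-HD, 243 CPM in G-HD and 287 CPM in PBS, nor did Hif1a mRNA, at 30.7 CPM in MPG-HD, 25.6 CPM in G-HD and 32.4 CPM in PBS.

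**Figure D3:**
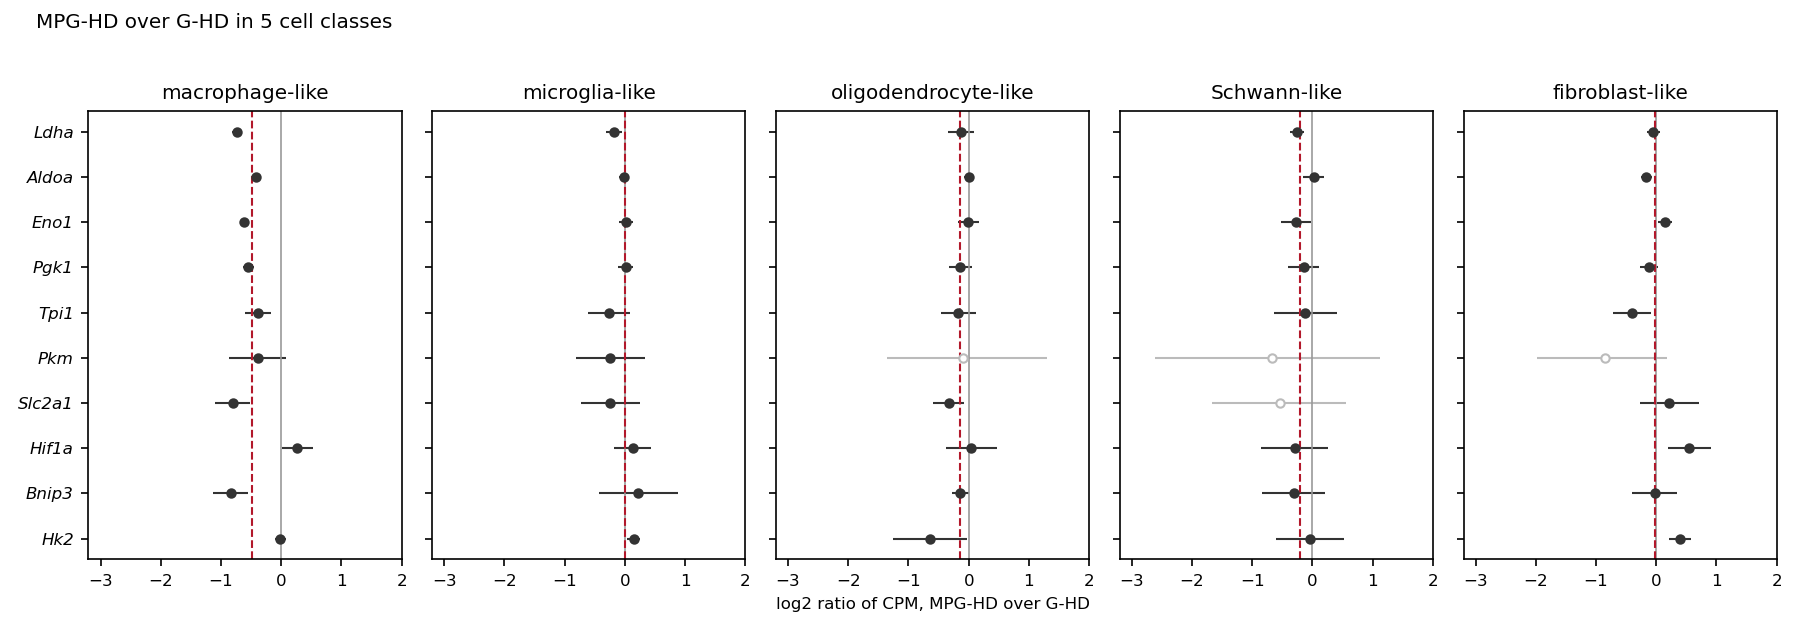
Log2 ratio of CPM, MPG-HD over G-HD, for the 10 genes in 5 cell classes, with 95% counting intervals; open grey points have under 50 UMIs in both sums together, and the red dashed line is the median of the filled points. The median is −0.48 in macrophage-like cells and lies between −0.20 and 0.00 in the other 4 classes shown.

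Against PBS the medians were smaller and of opposite sign, and the 3 comparisons share libraries. In G-HD over PBS, Slc2a1 (1.57, 1.27 to 1.97) was the only one of the 10 at least 1.5-fold higher, against 5.59% of all genes, and none was as much lower, against 5.32%. Its log2 ratio (0.65) was 0.38 to 0.53 under 4 of 12 alternatives, short of 1.5-fold, the lowest on 14 UMIs in G-HD and 5 in PBS after thinning. Bnip3 (1.41, 1.15 to 1.74), Pgk1 (1.39, 1.30 to 1.48) and Ldha (1.24, 1.17 to 1.32) also had intervals above 1, as did Aldoa (1.198) and Eno1 (1.16). In PBS, a single cell held 26 of the 123 Bnip3 UMIs (21.1%), against 22 of 405 in G-HD. That cell raised the PBS level, so it lowered this Bnip3 ratio. Tpi1 (0.704), Hif1a (0.789) and Hk2 (0.845) had intervals below 1, and the median log2 ratio was 0.24, which came to 0.04 after thinning, on the 5 genes that kept enough UMIs. In MPG-HD over PBS, only Tpi1 (0.541, 0.457 to 0.639) was at least 1.5-fold lower, against 5.27% of all genes, and none was as much higher, against 2.93%. Ldha (0.746), Eno1 (0.761), Hk2 (0.837) and Aldoa (0.894) had intervals below 1, and the median was −0.30. Tpi1 was also at least 1.5-fold lower in that comparison in microglia-like, oligodendrocyte-like and Schwann-like cells. The Schwann-like value fell short of 1.5-fold or turned under 5 of 12 alternatives, and 1 PBS cell held 15 of its 50 Tpi1 UMIs. Over all cells Tpi1 stood at 46.0 CPM in MPG-HD, 53.1 CPM in G-HD and 70.3 CPM in PBS.

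All 3 macrophage-like clusters showed the lower median in MPG-HD over G-HD, at −0.46 in cluster 1, −0.50 in cluster 2 and −0.44 in cluster 10, the last over 7 genes with enough counts. In cluster 1, Ldha (0.561), Bnip3 (0.588) and Slc2a1 (0.614) were at least 1.5-fold lower, 3 of 10 against 6.72% of all genes. In cluster 2 these were Bnip3 (0.555), Pgk1 (0.653) and Slc2a1 (0.660, 0.414 to 1.04), 3 of 10 against 4.91%. In cluster 10 it was Slc2a1 (0.521, 0.271 to 0.944), 1 of 7 against 8.02%. The mix of clusters differed, with cluster 1 holding 43.0% of macrophage-like cells in MPG-HD, 57.6% in G-HD and 44.9% in PBS, and with clusters weighted equally the class median was −0.54.

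**Figure D4:**
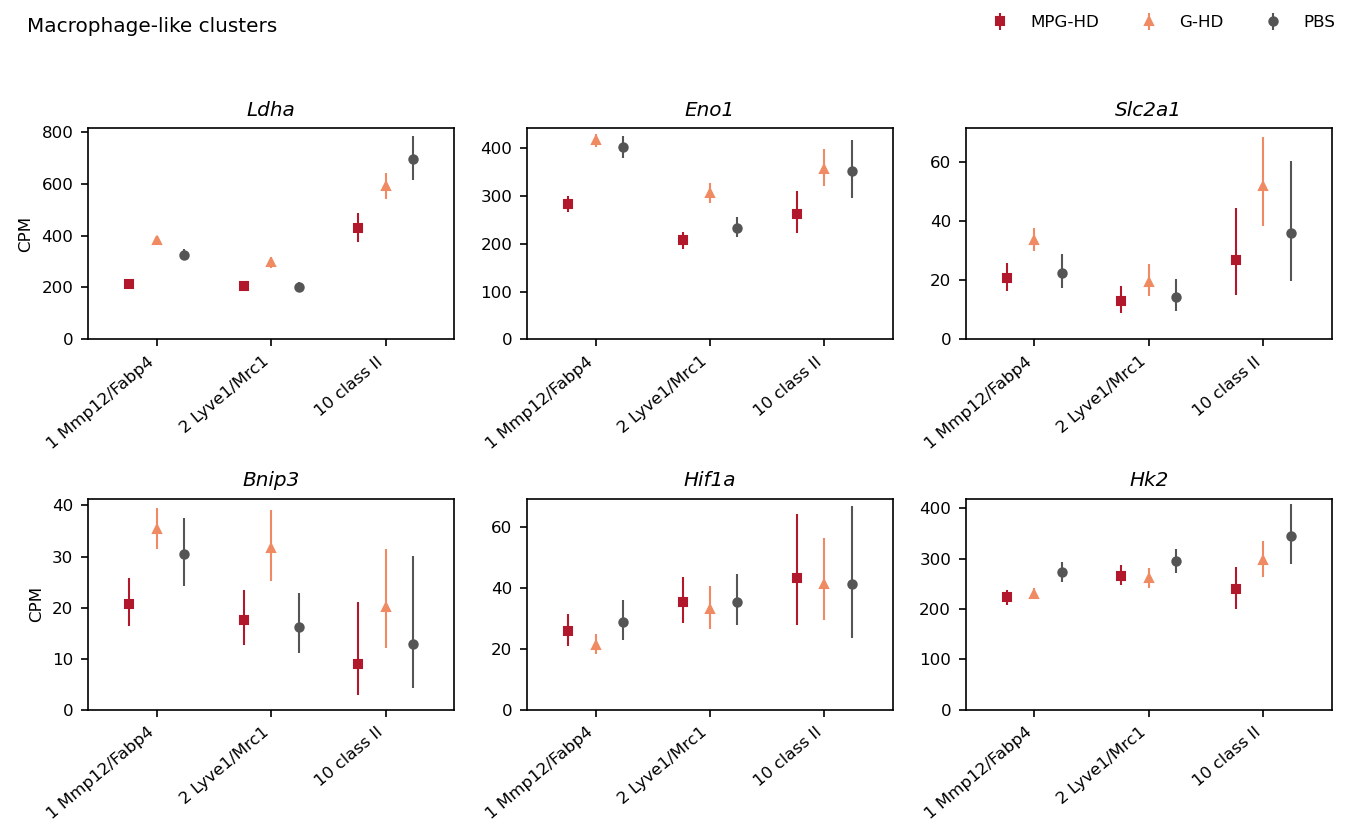
CPM of 6 genes in macrophage-like clusters 1, 2 and 10; each point is 1 library, with its 95% counting interval. Ldha in cluster 1 stood at 214 CPM in MPG-HD, 382 CPM in G-HD and 327 CPM in PBS, whereas Hk2 stood at 223, 231 and 273 CPM in MPG-HD, G-HD and PBS.

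The libraries differed in cluster 2 against PBS too. There Bnip3 (1.95, 1.29 to 3.004) and Pgk1 (1.52, 1.36 to 1.70) were at least 1.5-fold higher in G-HD over PBS, 2 of 10 against 7.43% of all genes. Bnip3 in that cluster stood at 17.5 CPM in MPG-HD, 31.6 CPM in G-HD and 16.2 CPM in PBS, so G-HD alone was high.

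Other pathway genes in macrophage-like cells gave a mixed picture for MPG-HD over G-HD. The lactate exporter Slc16a3 stood at 9.68 CPM in MPG-HD and 17.9 CPM in G-HD (0.540, 0.405 to 0.712), and Slc2a6, of the glucose transporter family, at 4.41 and 8.47 CPM in MPG-HD and G-HD (0.521, 0.337 to 0.785). These were the 2 of 5 measured transport genes at least 1.5-fold lower, against 4.62% of all genes, and the list's median log2 ratio was −0.21. Among 6 measured other glycolysis enzymes none was lower by that much. Ldhb was higher (2.77, 2.04 to 3.79), as were 2.86% of all genes, and the list's median was −0.31. Cluster 2 held 105 of the 112 Ldhb UMIs in MPG-HD and 40 of the 70 in G-HD, and its Ldhb ratio was 2.78 (1.92 to 4.11). Cluster 1, on 7 UMIs in MPG-HD and 26 in G-HD, stood at 0.586 (0.215 to 1.39), and cluster 10 held 0 and 4 UMIs in MPG-HD and G-HD. Hilpda, a lipid droplet gene, was the only one of 20 measured other HIF targets that was lower (0.476, 0.220 to 0.945). This count is near the 4.62% of all genes, and that list's median was −0.07. None of the 6 measured glycolysis regulators (median −0.21) or the 3 measured HIF pathway regulators (median −0.36) passed 1.5-fold.

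Against PBS, Slc16a3 was again lower in MPG-HD macrophage-like cells (0.391, 0.287 to 0.529), as were Slc2a6 (0.535), Vhl (0.547), which encodes part of the ligase that marks HIF for breakdown, and Anxa2 (0.606), while Ldhb was higher (1.93). In G-HD over PBS, Cited2, an inhibitor of HIF at its coactivator, was higher (1.68, 1.48 to 1.91). Ddit4 (0.556) and Adm (0.648), which are HIF targets in many cells, were lower. Of 20 measured other HIF targets, 3 were at least 1.5-fold lower, these among them, against 5.32% of all genes. Hilpda alone was as much higher (1.71, with an interval of 0.843 to 3.85), near the 5.59% of all genes, and the median was 0.09.

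Several measures of the macrophage-like cells differed along with these levels. The summed level of 11 macrophage markers was 25496 CPM in MPG-HD, 36569 CPM in G-HD and 30733 CPM in PBS, with none at 0, and median depth was 15279, 16563 and 15556 UMIs in MPG-HD, G-HD and PBS. Fibroblast markers summed to 25.8 CPM in MPG-HD, 59.1 CPM in G-HD and 24.0 CPM in PBS, and oligodendrocyte markers to 267, 188 and 272 CPM in MPG-HD, G-HD and PBS. Endothelial markers summed to 15.9, 20.8 and 16.1 CPM in MPG-HD, G-HD and PBS. Their part in the result was not tested.

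Microglia-like cells, the resident counterpart, showed little difference in the same genes. Ldha stood at 214 CPM in MPG-HD, 243 CPM in G-HD and 220 CPM in PBS, and Eno1 at 269, 265 and 264 CPM in MPG-HD, G-HD and PBS. For MPG-HD over G-HD, 0 of 10 genes passed 1.5-fold in either direction, against 2.50% of all genes higher and 4.76% lower, and the median was 0.00 to 2 decimals. For G-HD over PBS, 0 of 10 did (5.33% of all genes higher and 4.30% lower), with a median of −0.06. For MPG-HD over PBS, Tpi1 alone was lower (0.571, 0.456 to 0.715), 1 of 10 against 4.21%, none was higher (3.19% of all genes), and the median was −0.11. After thinning, the log2 ratio of Tpi1 in that comparison was −0.01.

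The list genes of microglia-like cells were less even. Ldhb stood at 45.8 CPM in MPG-HD, 107 CPM in G-HD and 81.5 CPM in PBS, a ratio of 0.428 (0.362 to 0.505) for MPG-HD over G-HD, whereas that ratio was above 1 in cluster 2 of the macrophage-like cells (2.78), a difference that was not tested. Hk3 was lower in MPG-HD than in G-HD (0.607) and than in PBS (0.644). Cited2 was higher in G-HD than in PBS (2.32, 1.98 to 2.73) and lower in MPG-HD than in G-HD (0.409). The HIF prolyl hydroxylase Egln3 (0.506) and Vhl (0.548) were lower, and Ndrg1 (1.74), Pdk3 (1.69) and P4ha2 (1.502) higher, in G-HD over PBS. Egln3 was also lower in MPG-HD than in PBS (0.584).

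In oligodendrocyte-like cells, 9 of the 10 genes had enough counts, all but Pkm. Hk2 was lower in MPG-HD than in G-HD (12.2 against 19.1 CPM; 0.640, 0.421 to 0.986), 1 of 9 against 5.27% of all genes, none was higher (1.99%), and the median was −0.14. The log2 ratio of Hk2 (−0.64) was −0.16 with each cell weighing the same, −0.29 after thinning and −0.36 without high doublet scores, all short of 1.5-fold. Tpi1 was lower in MPG-HD than in PBS (61.1 against 93.0 CPM; 0.658, 0.554 to 0.781), 1 of 9 against 4.61%, and none was higher (3.30%). No gene passed 1.5-fold in G-HD over PBS (5.29% of all genes higher and 3.41% lower). Bnip3, high in these cells, was 0.801 (0.735 to 0.874) of PBS in MPG-HD and 0.884 (0.794 to 0.983) in G-HD.

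Beyond the 10 genes, Epas1 in oligodendrocyte-like cells was lower than in PBS in both MPG-HD (0.576, 0.450 to 0.738) and G-HD (0.589, 0.423 to 0.812). Anxa2 was higher than in PBS in both, at 1.62 in MPG-HD and 1.75 in G-HD. Both comparisons share the PBS library. Cited2 was lower in MPG-HD than in G-HD (0.262, 0.141 to 0.476), and Ddit4 lower in MPG-HD than in PBS (0.666). For G-HD over PBS, the collagen prolyl hydroxylase subunit P4ha1 stood at a ratio of 1.67 (1.13 to 2.49) and Arnt2, of the HIF beta subunit family, at 0.499 (0.273 to 0.875).

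Schwann-like cells had 8 genes with enough counts. Hk2 stood at 51.7 CPM in MPG-HD, 53.1 CPM in G-HD and 23.6 CPM in PBS, a ratio of 2.19 (1.15 to 4.50) for MPG-HD and 2.25 (1.19 to 4.61) for G-HD over the shared PBS library. It was the only gene at least 1.5-fold higher in either, against 5.01% and 7.86% of all genes. Tpi1 was lower in MPG-HD (0.604) and in G-HD (0.657) than in PBS, and Eno1 in MPG-HD (0.647). These made 2 of 8 genes lower in MPG-HD over PBS, against 5.34%, and 1 of 8 in G-HD over PBS, against 4.95%. One PBS cell held 79 of the 179 Eno1 UMIs (44.1%) and 55 of the 142 Pgk1 UMIs (38.7%) of its class, and without the top cell of each library the log2 ratio of Eno1 in MPG-HD over PBS was 0.11. For Tpi1 the top PBS cell held 15 of the 50 UMIs (30.0%). The Tpi1 call ended under 5 of 12 alternatives in MPG-HD over PBS and 6 of 12 in G-HD over PBS. After thinning to 1000 UMIs, the log2 ratio of Tpi1 turned to 0.43 in MPG-HD and 0.47 in G-HD over PBS, and that of Hk2 came to 0.31 in MPG-HD over PBS and 0.05 in G-HD over PBS, on 11 UMIs in MPG-HD, 9 in G-HD and 4 in PBS, both short of 1.5-fold. No gene passed 1.5-fold in MPG-HD over G-HD (2.23% of all genes higher and 5.38% lower).

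Of the lists in Schwann-like cells, the hypoxia target Ndrg1 was higher in G-HD than in PBS, at 131 against 72.9 CPM (1.80, 1.24 to 2.67). Ddit4, an inhibitor of mTOR signalling, was lower than in PBS in both MPG-HD (0.604) and G-HD (0.586). Gpi, the isomerase that follows hexokinase, was lower in MPG-HD than in PBS (83.8 against 154 CPM; 0.546, 0.397 to 0.751). Pdha1, a subunit of pyruvate dehydrogenase, was lower in G-HD than in PBS (0.650), and Cited2 lower in MPG-HD than in G-HD (0.425).

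Fibroblast-like cells as a class showed 0 of 9 genes past 1.5-fold in MPG-HD over G-HD, where 5.11% of all genes were higher and 11.8% lower, with a median of −0.03 against −0.11 over all genes. In G-HD over PBS it was again 0 of 9 (11.2% of all genes higher and 8.27% lower), with a median of 0.19. In MPG-HD over PBS it was 0 of 9 as well (3.73% higher and 7.19% lower), with a median of 0.13. Hk2 stood at 223 CPM in MPG-HD, 170 CPM in G-HD and 156 CPM in PBS, a ratio of 1.42 (1.23 to 1.65) for MPG-HD over PBS. Hif1a stood at 64.5 CPM in MPG-HD, 44.2 CPM in G-HD and 59.0 CPM in PBS, a ratio of 1.46 (1.14 to 1.87) for MPG-HD over G-HD. The class joined 3 clusters whose mix differed, since cluster 9 held 28.0% of its cells in MPG-HD, 53.2% in G-HD and 25% in PBS, and these clusters did not move alike.

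Cluster 14, led by Sfrp2 and Eln, had only 40 cells in MPG-HD, 61 in G-HD and 43 in PBS, and carried the lower-pathway enzymes at higher levels in both gels than in PBS. Ldha stood at 557 CPM in MPG-HD, 554 CPM in G-HD and 327 CPM in PBS. Pgk1 stood at 370 CPM in MPG-HD, 355 CPM in G-HD and 220 CPM in PBS. Bnip3 stood at 70.4 CPM in MPG-HD, 58.3 CPM in G-HD and 26.4 CPM in PBS. PBS was the low library for all 3, and for Aldoa and Eno1 as well.

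In MPG-HD over PBS, Bnip3 (2.67, 1.46 to 5.17), Ldha (1.70), Pgk1 (1.68), Aldoa (1.61) and Eno1 (1.51) were at least 1.5-fold higher, 5 of 8 against 7.61% of all genes. In G-HD over PBS they were Bnip3 (2.21, 1.21 to 4.27), Aldoa (1.99), Eno1 (1.72), Ldha (1.70) and Pgk1 (1.62), 5 of 8 against 15.9%, and the PBS library is common to both comparisons. With each cell weighing the same, the counts came to 3 and 6. Hk2 was lower in G-HD (0.488, 0.372 to 0.638), 1 of 8 against 10.7%. In MPG-HD over G-HD, Hk2 (1.96) and Hif1a (1.81) were higher, 2 of 8 against 8.11%.

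**Figure D5:**
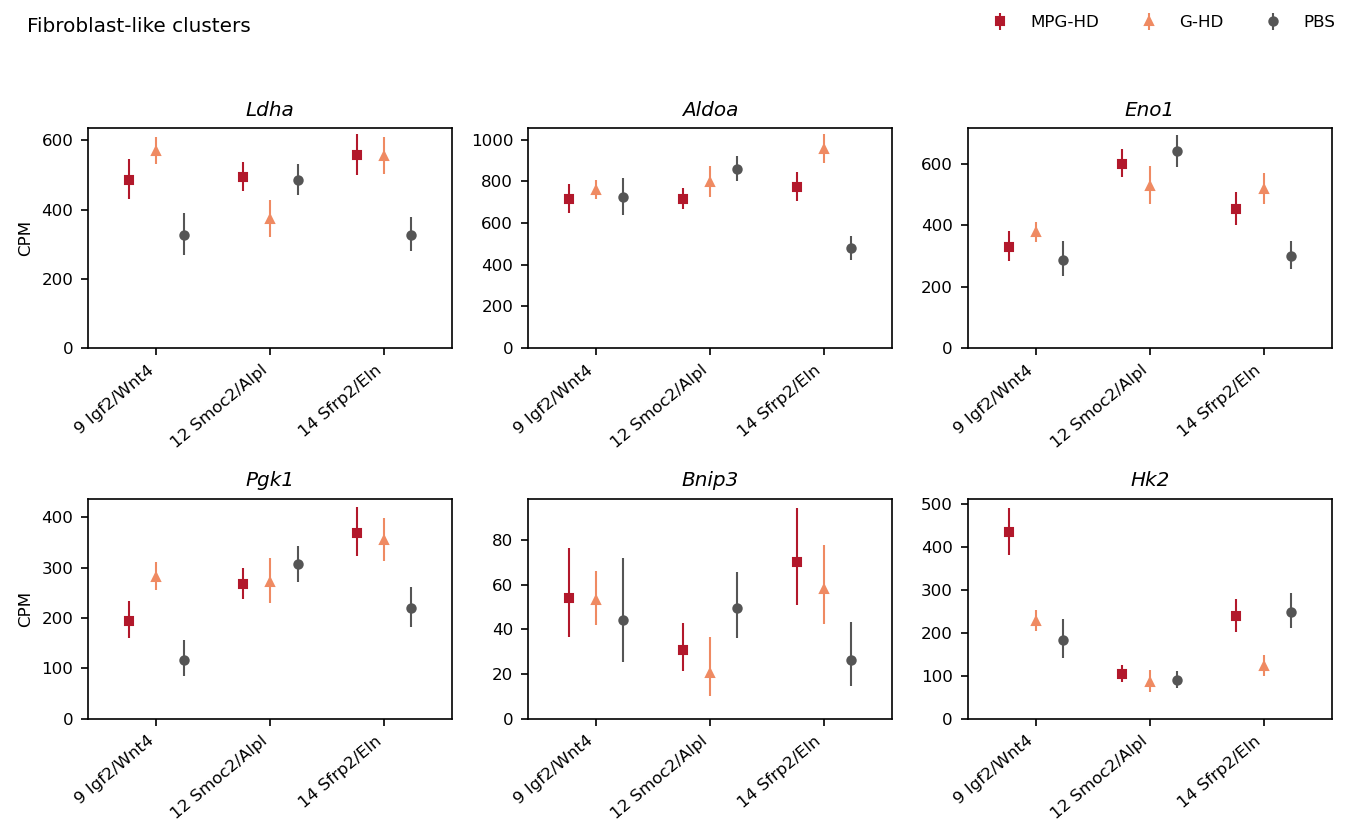
CPM of 6 genes in fibroblast-like clusters 9, 12 and 14; each point is 1 library, with its 95% counting interval. In cluster 14 Ldha stood at 557 CPM in MPG-HD, 554 CPM in G-HD and 327 CPM in PBS, and in cluster 9 Hk2 stood at 435 CPM in MPG-HD, 227 CPM in G-HD and 183 CPM in PBS.

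In cluster 9, led by Igf2, A2m and Wnt4, Hk2 was higher in MPG-HD than in G-HD (1.91, 1.62 to 2.26), as was Hif1a (1.62), 2 of 8 against 3.77% of all genes. In MPG-HD over PBS, Hk2 (2.38, 1.81 to 3.17) and Pgk1 (1.68) were higher, 2 of 7 against 8.32%. Pgk1 (2.43) and Ldha (1.75) were higher in G-HD over PBS, 2 of 8 against 12.7%. Cluster 12, led by Smoc2 and Alpl, went the other way in G-HD over PBS, with Bnip3 (0.414), Tpi1 (0.533), Hif1a (0.580) and Slc2a1 (0.589, 0.331 to 1.01) at least 1.5-fold lower, 4 of 9 against 9.01%. In MPG-HD over PBS only Bnip3 (0.620) was lower there, 1 of 9 against 9.60%. Across libraries, Hk2 was 2.82-fold higher in cluster 9 than in cluster 12, 1 of 9 genes against 20% of all genes, and Slc2a1 (0.520) and Eno1 (0.560) were lower, 2 of 9 against 17.8%.

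Some HIF targets outside the 10 genes passed 1.5-fold in fibroblast-like cells, where no member did at the level of the class. Hmox1, heme oxygenase, stood at 119 CPM in MPG-HD, 95.5 CPM in G-HD and 23.9 CPM in PBS, a ratio of 4.98 (3.62 to 6.98) for MPG-HD and 3.99 (2.90 to 5.61) for G-HD over PBS. Of 20 measured targets in MPG-HD over PBS, 4 were at least 1.5-fold higher, against 3.73% of all genes, and 1, Ndrg1 (0.591), lower, against 7.19%. Of 21 in G-HD over PBS, 4 were higher, against 11.2%, and 2 lower, near the 8.27% of all genes. Ero1a, a folding oxidase, was higher in G-HD than in PBS (3.35, 2.36 to 4.86), as was Adm, adrenomedullin (2.05). Lox, which cross-links collagen, was higher in MPG-HD than in G-HD (758 against 335 CPM; 2.27, 2.09 to 2.46), as were Aldoc (3.43) and Tgfbi (1.88). Ero1a (0.449), Arnt2 (0.459) and Epas1 (0.642) were lower in MPG-HD than in G-HD. Macrophage markers in these cells summed to 732 CPM in MPG-HD, 1049 CPM in G-HD and 410 CPM in PBS, and endothelial markers to 66.3, 171 and 73.9 CPM in MPG-HD, G-HD and PBS. Of the 11 macrophage markers, 2 in MPG-HD, 3 in G-HD and 3 in PBS were at 0. Their part in these values was not tested.

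Across 51 sums of a cluster in a library, the genes with the pattern most like a member were described by Pearson correlation over 8852 genes. For Bnip3 these were Rtn4 (0.926), Lhpp (0.922) and Acyp2 (0.921), and for Slc2a1 Vwf (0.843), Ptprb (0.832) and Sox17 (0.829). For Ldha they were Rab5if (0.829), Myl12b (0.825) and Jpt1 (0.812). Among the members, Eno1 and Pgk1 (0.727), Ldha and Pgk1 (0.714) and Ldha and Eno1 (0.702) ran closest, and Bnip3 and Hk2 ran opposite (−0.640). The sums of a library share its depth and preparation, and no test was made.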

How the data were processed

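The matrices deposited by the authors hold raw UMI counts for each gene and barcode, not normalized. Cell Ranger 3.0.2 and mouse builds are named in the submitters' processing notes. Version 3.1.0 stands in the matrix header, and all gene identifiers are rat Ensembl ones. The rat build is not given in the sources used here.

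Barcodes needed 200 or more genes and no more than 20% mitochondrial UMIs (5815 cells). Scrublet (Scanpy 1.11.5, expected rate 6%) called 12 of them (0.206%), was taken as not having worked, and these were removed. Clustering used 2000 variable genes without any listed pathway gene, 30 principal components, 20 neighbours (scikit-learn 1.9.0) and the Leiden method at resolution 0.8 (leidenalg 0.10.2). Clusters were named by 20 fixed marker sets and written as "like" classes. Clusters whose leading genes went against a name stayed unnamed.

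UMIs were summed per class and library and scaled to CPM with exact Poisson intervals; ratios carry exact conditional intervals (SciPy 1.17.1). A gene was measured in a comparison if its 2 sums held 50 UMIs or more between them, and 1.5-fold was the size reported. With 1 library per group, no test, p-value or count from cells was made. The ratio step was tested on simulated data.

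Named genes are the 10 members and, from 5 lists of pathway genes, up to 4 per comparison, class and list with at least 50 UMIs, at least 1.5-fold and an interval leaving out 1. Gapdh, Hkdc1 and Car9 were not analysed here. The members and lists were chosen with earlier results of these data known. Shared barcodes were 8 between MPG-HD and G-HD (6 among kept cells), 5 between MPG-HD and PBS (4) and 8 between G-HD and PBS (7). Alternatives covered the cell filter, clustering, doublets, UMI minimum, scaling, weighting, thinning to 1000 UMIs and the top cell of each gene. One gene of the lists is counted but not reported by name here.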

Additional observations from a re-analysis of the deposited data

Results flagged for a closer look

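In 7 contrasts of a member between treatments, 2 cell classes went in opposite directions by the rule used here. Each interval lay on its own side of 1, and the 2 ratios were at least 1.5-fold apart. None of these differences was tested, since each condition has 1 library, and the figure given for each is the ratio of the 2 ratios.

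For Ldha in MPG-HD over PBS, fibroblast-like cells stood at 1.25 and macrophage-like cells at 0.746, which gives 1.68. For Eno1 in MPG-HD over G-HD, fibroblast-like cells stood at 1.11 and macrophage-like cells at 0.654, which gives 1.69. The transporter Slc2a1 in G-HD over PBS stood at 1.57 in macrophage-like cells and 0.690 in fibroblast-like cells, which gives 2.28. Fibroblast-like clusters did not move alike for Slc2a1 in that contrast. Cluster 12 was lower, while cluster 14, on under 50 UMIs in both sums together, stood at 3.76 with each cell weighing the same. Cluster 12 held 43.4% of the class in PBS and 21.1% in G-HD, and the part of this mix was not tested. Bnip3 in G-HD over PBS stood at 1.41 in macrophage-like cells and 0.884 in oligodendrocyte-like cells, which gives 1.60. A single PBS macrophage-like cell held 26 of the 123 Bnip3 UMIs of its class, which lowered the macrophage-like ratio.

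Hk2 appeared in the other 3. In G-HD over PBS it stood at 2.25 in Schwann-like cells and 0.803 in microglia-like cells, which gives 2.80. In MPG-HD over PBS it stood at 2.19 in Schwann-like cells and 0.837 in macrophage-like cells, which gives 2.61. After thinning to 1000 UMIs per cell, the log2 ratio of Hk2 in Schwann-like cells was 0.05 in G-HD and 0.31 in MPG-HD over PBS, both short of 1.5-fold. In MPG-HD over G-HD it stood at 1.31 in fibroblast-like cells and 0.640 in oligodendrocyte-like cells, which gives 2.04, and the oligodendrocyte-like value came to a log2 ratio of −0.16 with each cell weighing the same.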

How the results depend on the processing

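The lower median of the measured genes among the 10 in macrophage-like cells of MPG-HD over G-HD kept its sign and moved by less than its counting spread under every alternative run (−0.60 to −0.45), with 3 to 5 genes at least 1.5-fold lower. The thinned median rests on the 5 genes that kept at least 50 UMIs. Other values moved, and the cause was not tested. The macrophage-like median of G-HD over PBS (0.24) was 0.17 with no cell filter, 0.16 with the stricter filter and 0.043 thinned. The microglia-like median of MPG-HD over PBS (−0.11) was 0.15 thinned. In Schwann-like cells the median of G-HD over PBS (0.02) was 0.41 with no filter, 0.44 thinned, 0.38 without the top cell and 0.44 without high doublet scores. That of MPG-HD over PBS (−0.12) was 0.16 with no filter, 0.32 thinned, 0.16 without the top cell and 0.20 without high doublet scores.

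Macrophage-like over oligodendrocyte-like cells (0.28) came to 0.78 with median-of-ratios scaling. Fibroblast-like over oligodendrocyte-like cells (0.78) came to 0.73 at resolution 0.4, 0.65 with cells or clusters weighted equally and 0.69 thinned, and ranged from 0.59 to 0.84 with 1 library left out. Schwann-like over oligodendrocyte-like cells (0.61) came to 0.34 with no filter, 0.46 with the stricter filter, 0.44 with cells weighted equally, 0.24 with median-of-ratios scaling, 0.37 without the top cell, 0.32 without high doublet scores and −0.14 thinned, and ranged from 0.45 to 0.66 with 1 library left out. In cluster 14, the genes higher in MPG-HD than in PBS numbered 5, or 3 with cells weighted equally, a setting chosen after seeing the data.

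Single genes that turned sign were Slc2a1 in macrophage-like cells of MPG-HD over G-HD (0.44 thinned), Tpi1 in Schwann-like cells (thinned, 0.43 in MPG-HD and 0.47 in G-HD over PBS) and Eno1 in Schwann-like cells of MPG-HD over PBS (0.18 with no filter, 0.068 thinned, 0.11 without the top cell and 0.30 without high doublet scores). Thinned values rest on few UMIs. No paired analysis was possible because each condition has 1 library.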
